A study of Sus scrofa with 23 samples.

Results

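The genes described here are 10 Wnt genes of kidney development: the ligands WNT4, WNT9B, WNT7B, WNT11 and WNT5A, the secreted inhibitors SFRP1, SFRP2 and DKK1, and AXIN2 and LEF1, which act inside the cell. They were taken by name and are 10 of the 26687 gene symbols in the deposited tables, of which 25476 had a rounded count above 0 in at least 1 library. All 10 passed the filter on low counts and were among the 20921 genes tested.

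The study sequenced total RNA, depleted of ribosomal RNA, from the kidney cortex of 23 newborn pigs, 1 library per pig. The labels give 3 genotypes of the chloride channel gene CFTR: 11 pigs without a working copy (CFTR-/-, labelled CF), 6 carriers (CFTR+/-, labelled HET) and 6 wild-type pigs (labelled WT), and the 12 HET and WT pigs together are called non-CF. The paper describes the CF pigs as offspring of carriers, and no label names the sex or the litter. Depth ran from 32901281 to 52952273 estimated counts per library, with medians of 43636298 in CF, 47476461 in HET and 42709608 in WT.

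Wnt proteins are secreted signals that bind Frizzled receptors and their co-receptors on nearby cells; in the canonical branch this stabilises beta-catenin, which joins TCF/LEF proteins at target genes. In the embryonic kidney, WNT9B from the ureteric bud induces the neighbouring mesenchyme, WNT4 drives that mesenchyme to form the epithelium of the nephron, and WNT11 marks the tips of the branching bud. WNT7B acts from the ureteric trunk in the growth of the medulla, and SFRP and DKK proteins hold Wnt signals back outside the cell.

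CFTR RNA itself went against the labels. In CPM (counts scaled to library size and composition), the lowest, median and highest CFTR values were 1.27, 2.24 and 3.67 in WT, 9.41, 12.1 and 17.5 in HET and 12.5, 20.7 and 23.5 in CF. Every WT library was below every HET and every CF library, so that the libraries labelled wild-type held the least CFTR RNA. The log2 fold change was 3.14 ± 0.19 (SE) for CF against WT (adjusted p = 1.23e-10, edgeR, 11 and 6 pigs) and 2.47 ± 0.19 for HET against WT (adjusted p = 5.07e-08, edgeR, 6 and 6 pigs). For CF against HET it was 0.66 ± 0.16 (adjusted p = 0.19, edgeR). RNA level does not show whether an allele makes protein, and the groups below are named as libraries labelled CF, HET and WT; each direction rests on those labels.

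The libraries also separated by pig number. On the second axis of a plot of distances between libraries, which held 10.6% of the variation (the first held 17.2%), a gap of 0.321 divided pigs 1 to 6 and 12 to 18 from pigs 7 to 11 and 19 to 23, and the next largest gap was 0.181. The 13 earlier-numbered pigs were 6 CF, 3 HET and 4 WT, and the 10 later-numbered pigs were 5 CF, 3 HET and 2 WT. On the first axis a wider gap, of 0.642, divided 10 libraries (5 CF, 1 HET and 4 WT) from 13 (6 CF, 5 HET and 2 WT), of which 6 and 7 were of earlier-numbered pigs, and the comparisons below were not adjusted for it. The labels name no batch, and values are given within each set where they matter. LRP2 of the proximal tubule, a cell type of the cortex, averaged 4910 CPM. No gene of the 15 marker lists that had a row was at 0 in all libraries. The lists include urothelium and adrenal cortex, so this does not test the cortex label.

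Between genes, levels are compared per length, in TPM (length-scaled transcript abundance, deposited by the authors). SFRP1 was the most abundant of the 10, at 58.5 ± 13.5 TPM (SD, n = 23). AXIN2 followed at 9.93 ± 1.28 and LEF1 at 9.0 ± 2.05, and the ligands came next, WNT5A at 6.31 ± 1.80 TPM, WNT4 at 5.82 ± 3.21, WNT9B at 3.98 ± 1.31 and WNT11 at 3.81 ± 0.82. DKK1 at 2.88 ± 1.08, SFRP2 at 2.30 ± 1.07 and WNT7B at 1.64 ± 0.76 closed the order. SFRP1 exceeded AXIN2 in 23 of 23 libraries with ranges that did not overlap. Every other neighbouring pair in the order had overlapping ranges and overlapping intervals of 1 SD to each side of the means, although LEF1 exceeded WNT5A in each of the 23 libraries. The median of the 10 mean levels was 4.90 TPM, and that of all tested genes was 5.32 TPM. In the libraries labelled WT alone, LEF1 stood above AXIN2 and WNT4 above WNT5A, and WNT11 stood above WNT9B in both the HET and the WT libraries.

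**Figure D1:**
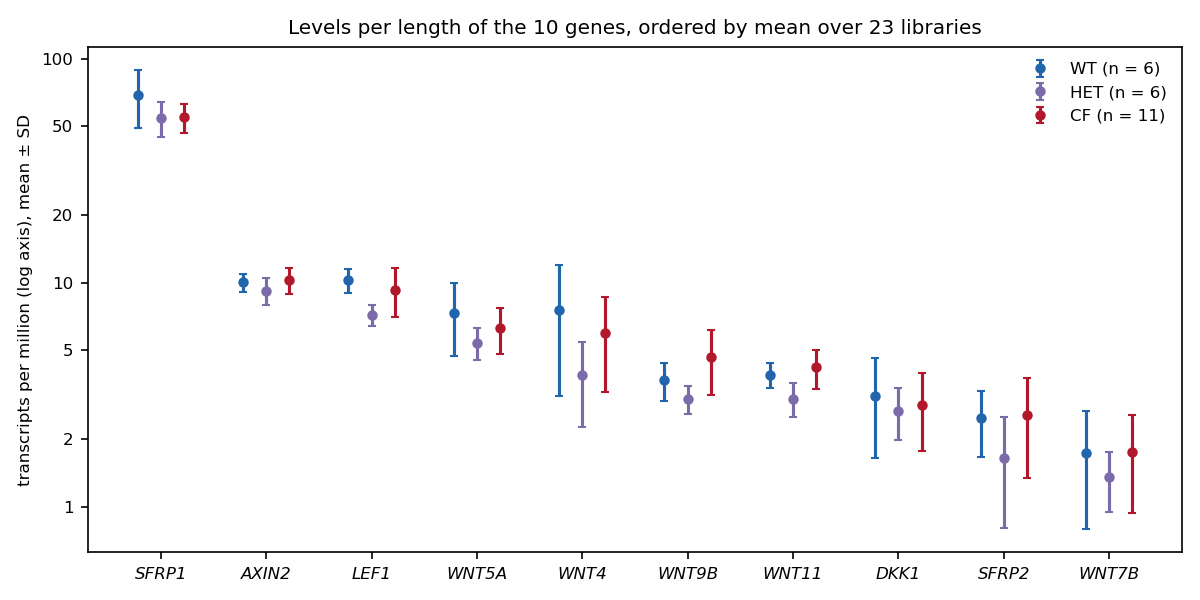
Mean level of each of the 10 genes in TPM (log axis) with the SD over libraries as bars, for the libraries labelled WT (n = 6), HET (n = 6) and CF (n = 11). SFRP1, at 58.5 TPM over all 23 libraries, stands apart from the other 9 genes, which lie between 1.64 and 9.93 TPM.

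The genes also differed in how much they varied from pig to pig. The SD of log2 CPM over the 23 libraries was 0.79 for WNT4, larger than that of 96.9% of tested genes, 0.65 for SFRP2 and 0.64 for WNT7B. AXIN2, the negative-feedback scaffold whose RNA is a common read-out of beta-catenin signalling, varied least, with an SD of 0.18, below the 0.26 that was the median over tested genes. HET19 held the lowest CPM of all 23 libraries for 6 of the 10 genes (WNT4, WNT11, WNT5A, AXIN2, SFRP1 and SFRP2). The library WT12 was the highest of the 6 WT libraries for WNT9B, WNT7B, WNT11, LEF1, AXIN2 and SFRP1.

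The first comparison asks whether Wnt RNA differed in kidneys labelled CF. Of the 10 genes, 8 were higher and 2 lower in CF than in non-CF, with a median log2 fold change of 0.10 beside -0.001 over all tested genes. None of the 10 passed an adjusted p of 0.05 in edgeR, 2 had an unadjusted p under 0.05 (WNT9B and WNT11), DESeq2 called 1 (WNT9B) and limma-voom 0. Over all genes edgeR called 73 (0.349%), 13.7% had an unadjusted p under 0.05, and DESeq2 called 515 of 16459 (3.13%). For all 10 genes the 95% interval around the log2 fold change stayed inside 1 in either direction, and for 5 of them inside 0.5. All 4 comparisons given here share libraries and are not independent of each other.

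WNT9B, the inducing ligand of the ureteric bud, was the member with the strongest difference. Its lowest, median and highest CPM were 13.3, 20.6 and 36.2 in CF, 12.6, 14.4 and 16.9 in HET and 10.4, 17.1 and 19.9 in WT. The groups overlapped, but 6 of the 11 CF libraries were above all 12 non-CF libraries, with CF7 and CF9 the highest of all. The log2 fold change for CF against non-CF was 0.52 ± 0.15 (SE), with an adjusted p of 0.11 in edgeR that ranged from 0.00365 to 0.995 over the alternatives tried, and with p = 0.0116 in a two-sided permutation test. With DESeq2 the adjusted p was 0.0333 at a log2 fold change of 0.52. In bulk tissue, fewer cells of a type and less RNA per cell cannot be told apart, here or for any gene below.

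In the earlier-numbered pigs WNT9B ran from 13.3 to 26.9 CPM in 6 CF libraries (median 15.3) and from 14.8 to 19.9 in 7 non-CF libraries (median 16.9). In the later-numbered pigs it ran from 20.6 to 36.2 CPM in 5 CF libraries (median 26.5) and from 10.4 to 15.1 in 5 non-CF libraries (median 12.9). In the first set the groups overlapped and their medians stood the other way round, and in the second every CF library was above every non-CF library. In the earlier set 0 of the 10 genes and 0.631% of all genes had ranges that did not overlap, and in the later set 1 of the 10 (WNT9B) and 4.64% of all genes. By edgeR the log2 fold change was 0.01 ± 0.14 in the earlier set (adjusted p = 0.995) and 1.12 ± 0.16 in the later set (adjusted p = 0.00365).

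Tested itself, the difference between the sets in the CF effect on WNT9B was 1.10 ± 0.22 on the log2 scale, with an adjusted p of 0.064 in edgeR. Over the alternatives that adjusted p ran from 0.00188, with DESeq2, to 0.137. It was under 0.05 by DESeq2 and without CF1, CF6, CF8 or WT17 in edgeR, and the size of the difference stayed between 0.99 and 1.27. Of the 10 genes, edgeR called 0 for this difference (1 at an unadjusted p under 0.05), DESeq2 called 1 and limma-voom 0. Over all genes edgeR called 4 (0.0191%), with 10.1% at an unadjusted p under 0.05, and DESeq2 called 144. Within the sets alone, edgeR called 0 of the 10 genes in the earlier-numbered pigs (0 at an unadjusted p under 0.05, beside 9.31% of all genes; no other tool was run) and 0% of all genes, and 1 of the 10 in the later-numbered pigs (3 at an unadjusted p under 0.05, WNT9B, WNT11 and AXIN2, beside 17.4% of all genes) and 2.27% of all genes. With the number set as a term in the fit, the log2 fold change of WNT9B over all 23 libraries was 0.49 (adjusted p = 0.123, edgeR).

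WNT11, the ligand of the bud tips, leaned the same way at a smaller size. Its CPM ran from 5.52 to 11.6 in CF (median 7.34), from 3.44 to 7.12 in HET (median 6.02) and from 5.32 to 8.44 in WT (median 6.47). The groups overlapped, although 10 of 11 CF libraries were above the non-CF median and CF7 was again the highest. The log2 fold change for CF against non-CF was 0.30 ± 0.13 (adjusted p = 0.279, edgeR, and two-sided permutation p = 0.0295). In the earlier-numbered pigs it was 0.13 ± 0.15 and in the later-numbered pigs 0.53 ± 0.20, and the difference between them was 0.39 ± 0.26 (adjusted p = 0.632, edgeR), or 0.24 without CF7 and 0.26 without HET19.

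WNT4, the ligand that turns mesenchyme into nephron epithelium, varied most of the 10 from pig to pig. Its lowest, median and highest CPM were 9.77, 18.3 and 40.4 in CF, 5.88, 12 and 21.4 in HET and 8.58, 23.2 and 37.9 in WT. All 3 groups overlapped, with CF1 the highest library and, among WT, 3 libraries above every HET library. In a fit with terms for CF against non-CF and for the number set, the later-numbered pigs were lower by a log2 difference of -0.86. That fit did not separate HET from WT, whose shares differ between the sets. Mean WNT4 CPM in earlier- and later-numbered pigs was 23.6 and 14.6 in CF, 13.4 and 12.6 in HET and 30.2 and 9.61 in WT. In the same fit WNT7B stood at -0.59, SFRP2 at -0.55, SFRP1 at -0.41, WNT5A at -0.38, AXIN2 at -0.22, LEF1 at -0.16, DKK1 at -0.15, WNT11 at 0.01 and WNT9B at 0.14, and none of these differences between the number sets was tested. The fold change for CF against non-CF was 0.10 ± 0.31 on the log2 scale (adjusted p = 0.937, edgeR), and without CF1 it was -0.06, the opposite sign.

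WNT5A, the ligand best known for signalling without beta-catenin, ran from 23.2 to 60.1 CPM in CF (median 35.0), from 23 to 42.5 in HET (median 37.5) and from 29.0 to 62.0 in WT (median 38.6). WNT7B, the trunk ligand, ran from 2.25 to 12.7 CPM in CF (median 5.57), from 3.07 to 6.66 in HET (median 5.0) and from 2.50 to 11.2 in WT (median 4.89). Both genes overlapped between every pair of labels. Their log2 fold changes for CF against non-CF were -0.01 ± 0.16 for WNT5A, a sign that turned in 13 of its 34 alternatives, and 0.21 ± 0.25 for WNT7B. WNT7B stood at 0.04 when CF3, its highest library, was left out, and at 0.35 without WT12.

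**Figure D2:**
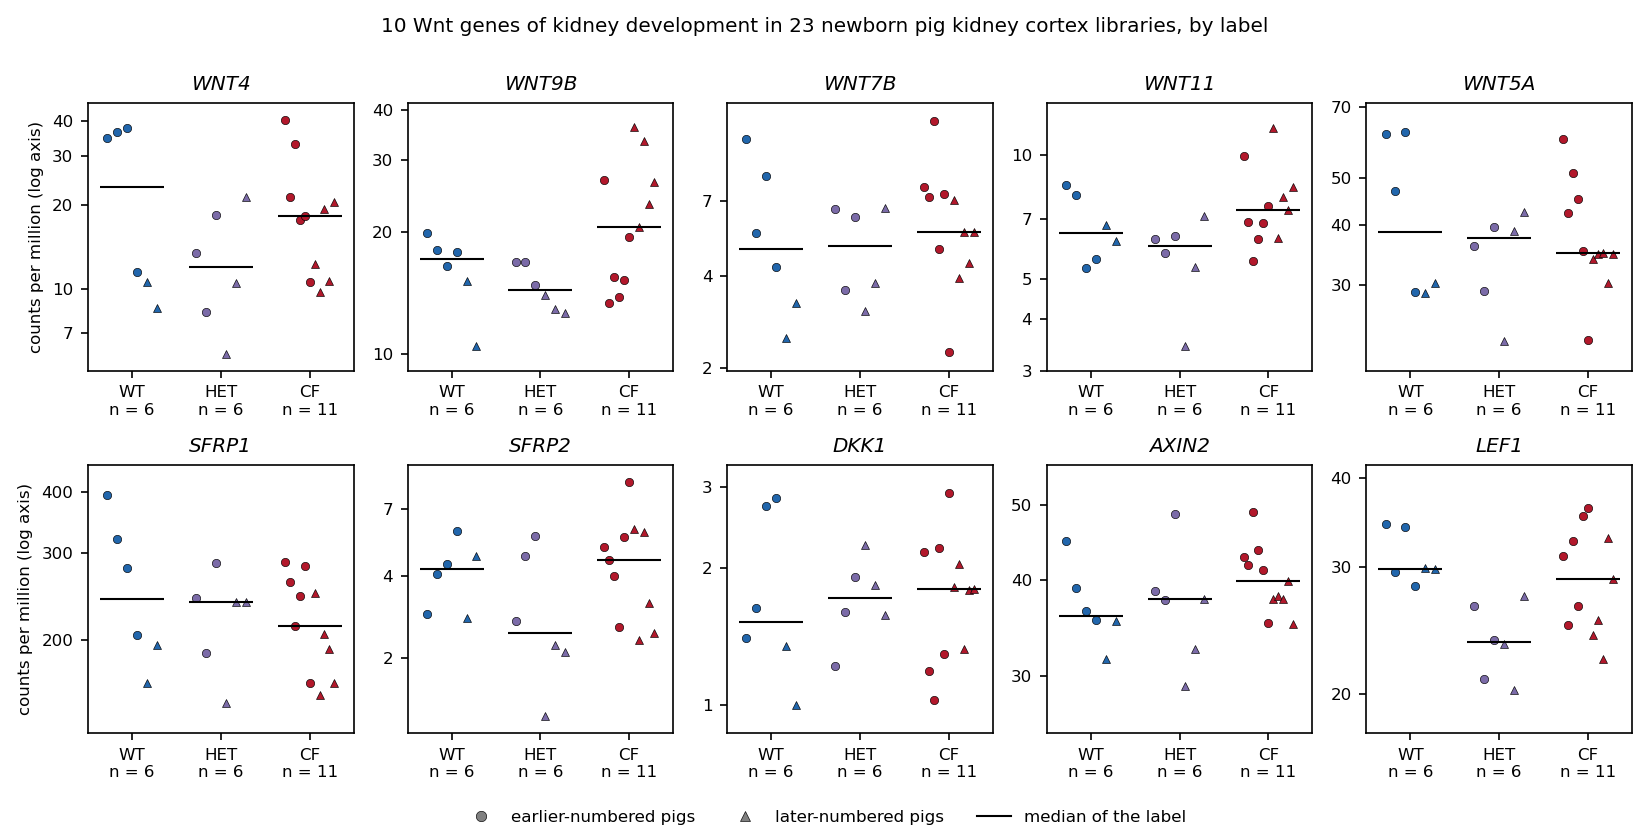
CPM (log axis) of each gene in every library, by label, with circles for earlier-numbered pigs, triangles for later-numbered pigs and a line at the median of the label. The 5 later-numbered CF libraries lie above the 5 later-numbered non-CF libraries for WNT9B, and the 6 HET libraries lie below the 6 WT libraries for LEF1.

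Among the secreted inhibitors, SFRP1, which binds Wnt ligands, ran from 155 to 288 CPM in CF (median 214), from 149 to 287 in HET (median 239) and from 164 to 394 in WT (median 242). SFRP2, its relative, ran from 2.33 to 8.79 in CF (median 4.57), from 1.23 to 5.58 in HET (median 2.48) and from 2.81 to 5.83 in WT (median 4.24). DKK1, which blocks the LRP co-receptors, ran from 1.02 to 2.92 in CF (median 1.80), from 1.21 to 2.24 in HET (median 1.71) and from 1.0 to 2.84 in WT (median 1.52). All 3 overlapped between every pair of labels, with WT12 the highest for SFRP1 and CF6 the highest for SFRP2 and DKK1. For CF against non-CF the log2 fold change was -0.14 ± 0.14 for SFRP1, 0.34 ± 0.24 for SFRP2 and 0.003 ± 0.18 for DKK1, with adjusted p of 0.739, 0.58 and 0.997 in edgeR. SFRP1 stood at -0.05 without WT12 and SFRP2 at 0.20 without CF6. The sign for DKK1 turned in 16 of its 34 alternatives, among them upper-quartile scaling (-0.01).

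AXIN2, a target gene and brake of beta-catenin signalling, was the steadiest of the 10. It ran from 35.0 to 49.0 CPM in CF (median 39.8), from 29.1 to 48.6 in HET (median 37.7) and from 31.6 to 44.9 in WT (median 35.9). The labels overlapped, with 9 of 11 CF libraries above the non-CF median. Its log2 fold change for CF against non-CF was 0.11 ± 0.08, with a 95% confidence interval from -0.04 to 0.26 and an adjusted p of 0.556 in edgeR. Without CF3, the library highest for AXIN2, it was 0.07.

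LEF1, a transcription factor that carries beta-catenin to target genes, set HET apart from WT. Its lowest, median and highest CPM were 20.3, 23.6 and 27.4 in HET, 28.3, 29.9 and 34.5 in WT and 22.4, 28.9 and 36.3 in CF. Every HET library was below every WT library, and therefore also within each number set, whereas the CF libraries spanned both. The log2 fold change for HET against WT was -0.39 ± 0.11, with an adjusted p of 0.445 in edgeR and an exact two-sided permutation p of 0.00216, the smallest that 6 against 6 libraries can give. LEF1 was 1 of the 10 genes with ranges that did not overlap between HET and WT, as were 0.703% of all tested genes. Its adjusted p ran from 0.231 (DESeq2) to 0.746 (edgeR without WT12) over the alternatives. For CF against HET the log2 fold change was 0.30 ± 0.10 (adjusted p = 0.356, edgeR) and for CF against WT -0.09 ± 0.10 (-0.05 without WT12).

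For HET against WT as a whole, which asks about carriers, 9 of the 10 genes were lower and 1, AXIN2, was higher in HET, with a median log2 fold change of -0.23 beside -0.005 over all tested genes. The sign for AXIN2 turned under upper-quartile scaling (-0.02). Over the 15 marker lists the median log2 fold change for HET against WT ran from -0.24 (ureteric bud tip) to 0.63 (erythroid cells). The part of these cells in the 10 genes was not tested. None of the 10 was called by edgeR, DESeq2 or limma-voom, and 2 had an unadjusted p under 0.05 in edgeR, LEF1 and WNT4. Over all genes 1 was called by edgeR, CFTR (0.00478%), and 7.99% had an unadjusted p under 0.05. WNT4 had the largest difference, -0.84 ± 0.40 (adjusted p = 0.624, edgeR, and exact permutation p = 0.182), with 6 of 6 HET libraries below the WT median. In the earlier-numbered pigs its mean was 13.4 CPM in 3 HET and 30.2 in 4 WT libraries. In the later-numbered pigs it was 12.6 in 3 HET and 9.61 in 2 WT libraries, the other way round. Of these HET libraries only HET21, at 21.43 CPM, was above WT22 at 10.63. HET20 was at 10.56, HET19 at 5.88 and WT23 at 8.58. Without HET19, the library lowest for most of these genes, the values for WNT4, WNT11, SFRP1 and SFRP2 were -0.69, -0.12, -0.12 and -0.25, against -0.84, -0.23, -0.21 and -0.41 with it. Without WT12, SFRP1 stood at -0.05, WNT11 at -0.15 and WNT7B at 0.06, against -0.21, -0.23 and -0.23 with it, while LEF1 stood at -0.35. The HET libraries were of 3 earlier- and 3 later-numbered pigs and the WT libraries of 4 and 2, and with the number set as a term WNT7B stood at -0.06, SFRP1 at -0.12 and WNT4 at -0.57.

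CF against WT and CF against HET set the same CF libraries beside each of the other labels. Against WT, 5 of the 10 genes were higher and 5 lower, with a median log2 fold change of 0.03 beside -0.002 over all tested genes. Against HET, 9 were higher and 1, SFRP1, was lower, with a median of 0.31 beside 0.005. In CF against WT edgeR called 0 of the 10 genes, as did DESeq2 and limma-voom, with 1 (WNT9B) at an unadjusted p under 0.05, and over all genes 73 (0.349%) were called and 14.1% had an unadjusted p under 0.05. In CF against HET edgeR called 0 of the 10 and 0% of all genes, DESeq2 and limma-voom called 0 of the 10, and 3 of the 10 (WNT9B, WNT11 and LEF1) and 9.89% of all genes had an unadjusted p under 0.05. WNT9B stood at 0.45 ± 0.19 against WT (adjusted p = 0.286, edgeR, and exact permutation p = 0.105) and at 0.60 ± 0.19 against HET (adjusted p = 0.332, edgeR, and exact permutation p = 0.0225). WNT11 stood at 0.19 ± 0.15 against WT (0.12 without CF7) and at 0.42 ± 0.16 against HET, with exact permutation p of 0.239 and 0.0173. SFRP2 stood at 0.15 ± 0.29 against WT (from 0.01 without CF6 to 0.27 without WT18) and at 0.56 ± 0.30 against HET.

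**Figure D3:**
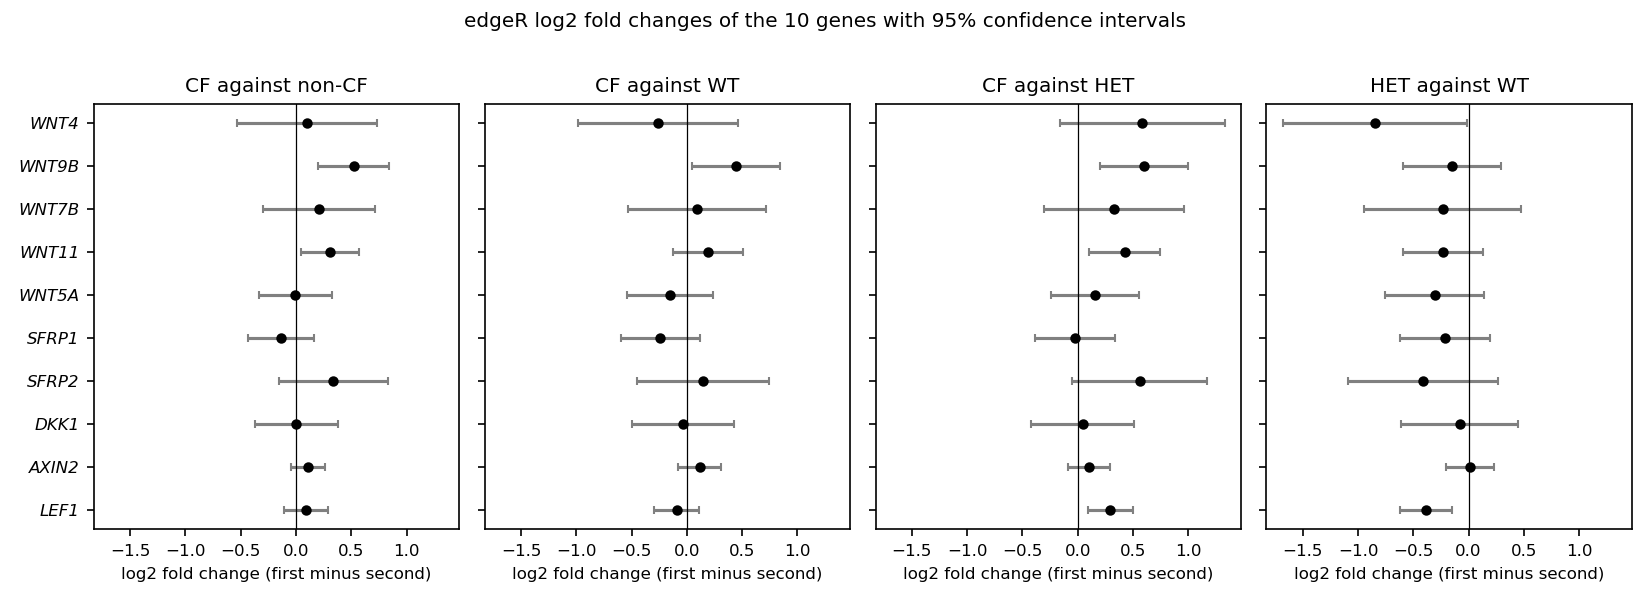
Log2 fold change (first group minus second) of each gene in 4 comparisons, from edgeR, with 95% confidence intervals as bars. Intervals that leave out 0 are those of WNT9B and WNT11 for CF against non-CF, of WNT9B beside WT, of WNT9B, WNT11 and LEF1 beside HET, and of WNT4 and LEF1 for HET against WT, none of them called by edgeR after adjustment.

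Several of the 10 genes varied together across pigs. Over the 23 libraries, which share labels and number sets, log2 CPM of WNT4 and WNT5A had a Pearson r of 0.90 and a Spearman rho of 0.84. Within the earlier-numbered and later-numbered pigs r was 0.92 and 0.76, and trimmed, that is without the 2 libraries farthest from the median of the first gene named, it was 0.86. WNT7B had an r of 0.82 with WNT5A (rho 0.80, sets 0.83 and 0.65, trimmed 0.78) and WNT4 had an r of 0.80 with WNT7B (rho 0.83, sets 0.76 and 0.74, trimmed 0.79). SFRP1 and AXIN2 varied with these ligands too. With WNT5A, WNT4 and WNT7B, r was 0.78, 0.73 and 0.72 for SFRP1 and 0.62, 0.62 and 0.72 for AXIN2. SFRP1 and AXIN2 had an r of 0.61 with each other. Within the number sets r of these pairs ran from 0.407 to 0.765. WNT9B and WNT11 had an r of 0.67 (rho 0.62, sets 0.68 and 0.69, trimmed 0.56). Between WNT9B and the ligands WNT4, WNT5A and WNT7B r was lower over the 23 libraries. WNT9B had an r of 0.04 with WNT5A (rho -0.05, sets 0.17 and 0.13, trimmed 0.13) and of 0.18 with WNT7B (rho 0.17, sets -0.05 and 0.60, trimmed 0.14), and WNT4 had an r of 0.18 with WNT9B (rho 0.20, sets 0.26 and 0.42, trimmed 0.02). LEF1 and AXIN2, which both belong to the beta-catenin branch, had an r of 0.23 (rho 0.18, sets -0.09 and 0.28, trimmed 0.12).

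The genes most like each member over the 23 libraries were found by the same r, given with rho, r in the earlier and later sets, and r trimmed by the 2 libraries farthest from the member's median. For WNT9B they were SAMD11 (r 0.93, rho 0.89, sets 0.88 and 0.96, trimmed 0.91), SERTAD4 (r 0.93, rho 0.86, sets 0.79 and 0.97, trimmed 0.88) and PMEPA1 (r 0.92, rho 0.82, sets 0.86 and 0.95, trimmed 0.85). For WNT11 they were ELFN1 (r 0.89, rho 0.77, sets 0.83 and 0.92, trimmed 0.82), ZNF362 (r 0.86, rho 0.78, sets 0.81 and 0.89, trimmed 0.77) and ARHGEF40 (r 0.86, rho 0.76, sets 0.75 and 0.91, trimmed 0.74). For WNT4 they were EEF1A2 (r 0.92, rho 0.87, sets 0.90 and 0.90, trimmed 0.91), GAS7 (r 0.90, rho 0.89, sets 0.86 and 0.89, trimmed 0.87) and WNT5A. For these 3 ligands, and for WNT7B, SFRP1 and AXIN2 below, r was at least 0.75 within both number sets. The genes were picked by r over these same libraries, so high values within the sets are partly built in. For WNT5A the genes were HHIP (r 0.92, rho 0.85, sets 0.97 and 0.62, trimmed 0.88), MOXD1 (r 0.92, rho 0.87, sets 0.93 and 0.71, trimmed 0.88) and WNT4. For WNT7B they were NEURL1B (r 0.88, rho 0.82, sets 0.85 and 0.89, trimmed 0.83), PPL (r 0.87, rho 0.85, sets 0.83 and 0.92, trimmed 0.83) and TLE4, a Groucho co-repressor (r 0.86, rho 0.88, sets 0.83 and 0.84, trimmed 0.86).

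Among the inhibitors, SFRP1 was most like CAPN1 (r 0.91, rho 0.89, sets 0.83 and 0.96, trimmed 0.89), the Wnt co-receptor PTK7 (r 0.90, rho 0.93, sets 0.85 and 0.88, trimmed 0.89) and ACVRL1 (r 0.90, rho 0.86, sets 0.88 and 0.85, trimmed 0.85). SFRP2 was most like NYNRIN (r 0.76, rho 0.69, sets 0.28 and 0.91, trimmed 0.67), VIPR2 (r 0.75, rho 0.67, sets 0.49 and 0.82, trimmed 0.59) and CITED1 (r 0.73, rho 0.69, sets 0.88 and 0.79, trimmed 0.57). DKK1 was most like ITGB7 (r 0.70, rho 0.68, sets 0.74 and 0.66, trimmed 0.62), NOX4 (r 0.69, rho 0.68, sets 0.86 and 0.46, trimmed 0.61) and PM20D2 (r 0.68, rho 0.67, sets 0.82 and 0.33, trimmed 0.65). Over the 23 libraries r and rho for SFRP2 and DKK1 were lower than those for SFRP1, and r was lower still when trimmed. Within the number sets r went both ways. AXIN2 was most like SLC30A3 (r 0.90, rho 0.86, sets 0.92 and 0.87, trimmed 0.84), TRIM66 (r 0.87, rho 0.84, sets 0.78 and 0.90, trimmed 0.83) and NOVA2 (r 0.86, rho 0.91, sets 0.76 and 0.86, trimmed 0.84). LEF1 was most like MLLT3 (r 0.77, rho 0.77, sets 0.90 and 0.48, trimmed 0.81), ABI2 (r 0.76, rho 0.77, sets 0.81 and 0.58, trimmed 0.76) and SCAI (r 0.74, rho 0.77, sets 0.90 and 0.41, trimmed 0.73), each closer in the earlier-numbered pigs.

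Markers of kidney cell types moved with some members. The summed CPM of the pretubular aggregate and renal vesicle list (6 of 7 genes with a row, all 6 tested, JAG1 the most abundant, none at 0 in all libraries) was 408, 487 and 592 at its lowest, median and highest in CF, 407, 443 and 461 in HET and 374, 432 and 476 in WT. Its r over 23 libraries was 0.64 with WNT9B (rho 0.47, sets 0.56 and 0.83, trimmed 0.46), 0.57 with WNT11 (rho 0.45, sets 0.42 and 0.84, trimmed 0.46) and 0.51 with SFRP2 (rho 0.50, sets 0.70 and 0.82, trimmed 0.38), while with WNT4, which is known to act there, it was -0.12 (rho -0.21, sets -0.24 and 0.52, trimmed -0.48). Like WNT9B and WNT11, this summed CPM reached higher in CF than in the other labels. JAG1 alone averaged 247.9 CPM, where the median sum over the 23 libraries was 454.9, so the sum is weighted to that gene. The r values are given for the sum only and may not hold for each gene of the list. The median log2 fold change over the genes of this list was 0.133 for CF against non-CF. The sums of the lists below are weighted by abundance in the same way. The ureteric trunk and collecting duct list (10 of 10 genes tested, TFCP2L1 the most abundant, none at 0) was 348, 476 and 588 in CF, 476, 529 and 814 in HET and 515, 617 and 721 in WT, with an r of -0.58 with WNT9B (rho -0.64, sets -0.17 and -0.77, trimmed -0.59). The ureteric bud tip list, where WNT11 is known to act (7 of 7 tested, GFRA1 the most abundant, none at 0), was 103, 138 and 165 in CF, 105, 137 and 156 in HET and 152, 169 and 182 in WT, and its r with WNT11 was 0.21 (rho 0.14, sets 0.32 and 0.13, trimmed 0.12). Of that list ETV4 fell in CF against WT, by a log2 fold change of -0.58 ± 0.13 (adjusted p = 0.0468, edgeR), the only edgeR call among the tested genes of the 15 lists in the 4 comparisons, and it is named after its values were seen. The call held in 12 of 26 alternatives, with adjusted p from 0.00553 to 0.126, and was lost with no filter (0.0539), with length-scaled counts (0.0532) and without any of CF1, CF2, CF3, CF5, CF7, CF9, CF11, WT12, WT16, WT17, WT18 or WT22. For ETV4 the log2 fold change stayed between -0.646 and -0.498 over all 26 alternatives. The part of these cell types in the WNT9B and WNT11 values was not tested.

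WNT4, WNT5A, SFRP1 and WNT7B went with markers of muscle, stroma or both. The smooth muscle and renin cell list (4 of 4 genes tested, ACTA2 the most abundant, none at 0) was 260, 349 and 931 CPM in CF, 318, 355 and 413 in HET and 295, 414 and 560 in WT. Its r was 0.64 with WNT4 (rho 0.53, sets 0.68 and 0.47, trimmed 0.58) and 0.68 with WNT5A (rho 0.51, sets 0.72 and 0.33, trimmed 0.64). With SFRP1 it was 0.505 (rho 0.51, sets 0.54 and 0.28, trimmed 0.50) and with WNT7B 0.42 (rho 0.36, sets 0.385 and 0.32, trimmed 0.445). CF1, the library highest for WNT4, held the 931. The trimmed r left out CF1 for WNT4 but kept it for WNT5A, SFRP1 and WNT7B. For WNT5A, which was at 60.1 CPM in CF1, the 2 libraries left out were WT12 and WT17. The stroma and interstitium list (8 of 8 tested, PDGFRA the most abundant, none at 0) was 853, 994 and 1205 in CF, 836, 984 and 1075 in HET and 866, 950 and 1153 in WT. Its r was 0.58 with WNT4 (rho 0.57, sets 0.64 and 0.29, trimmed 0.52), 0.60 with WNT5A (rho 0.60, sets 0.57 and 0.52, trimmed 0.49) and 0.65 with SFRP1 (rho 0.71, sets 0.62 and 0.60, trimmed 0.66). With WNT7B it was 0.50 (rho 0.60, sets 0.39 and 0.56, trimmed 0.76). The part of these cells in the values of WNT4, WNT5A, SFRP1 and WNT7B was not tested.

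Around the 10 genes, 91 further genes of the Wnt pathway in 10 lists were looked at, of which 90 had a row and 81 were tested. None was called by the main edgeR fit in any of the 4 comparisons. At an unadjusted p under 0.05 there were 8 of the 81 for CF against non-CF (beside 13.7% of all genes), 8 for HET against WT (7.99%), 8 between CF and WT (14.1%) and 9 between CF and HET (9.89%). Of the 81 DESeq2 called 2 for CF against non-CF, ROR1 and LRP6, of 71 that it gave an adjusted p (3.13% of all genes), 0 for HET against WT (0.158%), 1 between CF and WT, FZD5 (2.93%), and 1 between CF and HET, ROR1 (0.311%). For CF against non-CF 55 were higher and 26 lower, with a median log2 fold change of 0.06 beside -0.001 over all genes. For HET against WT 26 were higher and 55 lower (median -0.04), between CF and WT 50 and 31 (median 0.04) and between CF and HET 59 and 22 (median 0.09). These directions ran the same way as those of the 10 genes in each comparison but CF against WT, where the 10 split evenly. Over all tested genes 49.8% were higher for CF against non-CF, 48.8% for HET against WT, 49.6% between CF and WT and 51.4% between CF and HET. The comparisons share libraries and several of the 10 genes varied together, and the shared direction was not tested.

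Of 14 other ligands 8 were tested, 5 higher and 3 lower in CF than in non-CF, and WNT1, WNT3A, WNT6, WNT7A, WNT10A and WNT10B did not pass the filter. WNT16 was the most abundant at 17.8 ± 4.97 TPM, above the mean level of each of the 5 ligands among the 10 genes, and its log2 fold change was 0.01 ± 0.12, with the sign turned under upper-quartile scaling (-0.002). WNT5B stood at 0.44 ± 0.19 (adjusted p = 0.3, edgeR) and WNT3 at 0.16 ± 0.09 (adjusted p = 0.433, edgeR). The 2 genes needed to make and release every ligand, WLS and PORCN, were at 0.03 ± 0.07 and 0.01 ± 0.07, and PORCN turned to -0.01 under upper-quartile scaling. WLS was at 63.0 ± 7.67 TPM.

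Of 10 Frizzled receptors 6 were higher and 4 lower in CF than in non-CF, with a median of 0.11. FZD6 was the most abundant at 37.2 ± 7.06 TPM, with a log2 fold change of 0.22 ± 0.11, FZD5 stood at 0.27 ± 0.10 and FZD3 at 0.18 ± 0.07, with adjusted p of 0.372, 0.233 and 0.241 in edgeR. All 6 co-receptors and other receptors were higher, although PTK7 turned to -0.01 under upper-quartile scaling, with a median of 0.11. ROR1, a receptor for WNT5A, ran from 29.2 to 48.1 CPM in CF (median 35.5), from 24.2 to 31.2 in HET (median 27.0) and from 28.3 to 37.0 in WT (median 30.6), so that the labels overlapped. Its log2 fold change was 0.37 ± 0.09 with an adjusted p of 0.0609 in edgeR, which ran from 0.00939 (DESeq2) to 0.122 over its alternatives. In edgeR it was called with the number set as a term (0.374, adjusted p = 0.0357) and without CF10 (adjusted p = 0.0498). LRP6, the co-receptor of the canonical branch, ran from 165 to 209 CPM in CF (median 180), from 153 to 173 in HET (median 165) and from 158 to 182 in WT (median 163). Its values overlapped too, with a log2 fold change of 0.16 ± 0.05 and an adjusted p of 0.115 in edgeR, from 0.0264 (DESeq2) to 0.187 over its alternatives. PTK7 was the most abundant of this list at 64.3 ± 7.94 TPM.

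Of the R-spondin genes and their receptors, which amplify Wnt signals, 7 of 9 were tested, 4 higher and 3 lower, with a median of 0.01; LGR4 was at 37.9 ± 5.03 TPM with a log2 fold change of 0.09 ± 0.06, and RSPO1 stood at 0.15 ± 0.13 (0.09 without CF7). Of 13 other secreted or surface inhibitors 12 were tested, 9 higher and 3 lower, with WIF1 at 0.36 ± 0.16 (adjusted p = 0.299, edgeR) and APCDD1, at 34.5 ± 10.8 TPM, at 0.28 ± 0.18. Of the 12 genes of the beta-catenin relay 7 were higher and 5 lower. CTNNB1, which encodes beta-catenin, was at 178 ± 28.3 TPM and stood at 0.05 ± 0.09, or at 0.006 without CF1. APC2 stood at -0.24 ± 0.12 and CTNNBIP1, an inhibitor of beta-catenin and TCF binding, at -0.20 ± 0.11.

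Beside LEF1, the 7 other TCF factors and co-activators were 5 higher and 2 lower, with a median of 0.08. PYGO1, a co-activator, was at 0.17 ± 0.07 for CF against non-CF and at -0.21 ± 0.10 for HET against WT, the same directions as LEF1. BCL9L stood at 0.17 ± 0.13 and PYGO2, the most abundant at 15.2 ± 1.16 TPM, at -0.03 ± 0.06. PYGO2 stood at -0.06 without CF1 and at -0.006 without CF11. Beside AXIN2, 5 of the 8 other feedback and target genes were higher and 3 lower, with CD44 at 0.29 ± 0.16 and EMX2 at 0.13 ± 0.06. Of the 9 tested genes of the planar cell polarity branch 6 were higher and 3 lower, with DAAM2 at 0.12 ± 0.06 and INVS at 0.08 ± 0.05. DAAM2 stood at 0.07 without CF1.

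The members differed in their transcripts. WNT9B, SFRP1, SFRP2 and DKK1 each had 1 annotated transcript, and DKK1's was 801 bases long. WNT4's leading transcript carried 51.9 ± 7.11% of its estimated counts in CF, 49.1 ± 6.79% in HET and 52.5 ± 7.72% in WT (SD, n = 11, 6 and 6), and that of WNT5A carried 66.4 ± 5.54%, 70.3 ± 6.29% and 71.5 ± 6.64%. WNT11's leading transcript carried 46.7 ± 24.7% in CF, 60.6 ± 15.5% in HET and 46.8 ± 21.1% in WT. For WNT7B the share was 63.1 ± 29.5%, 64.8 ± 18.9% and 81.6 ± 18.9%. LEF1 had 15 transcripts, 4 of them at 0, and its longest, of 6844 bases, carried 27.0 ± 5.44%, 28.2 ± 1.82% and 29.9 ± 3.99%. AXIN2's leading transcript of 7 carried 34.2 ± 7.83%, 35.4 ± 11.6% and 35.8 ± 12%. These leading shares differed between labels by less than their spread. Of LEF1's other transcripts, 1 of 3720 bases carried 11.3 ± 3.01% in CF, 17.5 ± 3.97% in HET and 12 ± 4.67% in WT, and 1 of 3414 bases carried 17.4 ± 6.74%, 6.72 ± 7.6% and 14.6 ± 8.05%. Both are named after their values were seen, and their shares were not tested. Exons of another annotated gene overlap those of WNT9B and LEF1 on the opposite strand and those of AXIN2 on the same strand (CEP112), and whether the deposited counts used the strand is not stated.

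The 10 genes lie on 8 chromosomes of the pig genome (Sscrofa11.1, RefSeq annotation), with WNT9B at chr12:17709046-17733434 on the plus strand, LEF1 at chr8:113824511-113944078 on the plus strand and AXIN2 at chr12:12311293-12343207 on the minus strand. Promoter windows, 250 bases before to 50 after the annotated start, were read from the genome and searched on both strands for CTTTG and for CTTTGAT, letters that TCF/LEF proteins are known to bind; the shorter motif is contained in the longer. The shorter was in the windows of WNT5A, LEF1, AXIN2 and DKK1 and in 47.2% of the windows of all 27293 annotated genes. The longer motif was in those of LEF1 and AXIN2 and in 2.77% of all windows, and the windows of WNT4, WNT9B, WNT7B, SFRP1 and SFRP2 held neither. A match is a description of letters, and binding was not measured. The windows of LEF1 and AXIN2 are shown because they belong to a TCF/LEF factor and a target gene of the same pathway, with each match on either strand in capitals. They are LEF1 at chr8:113824261-113824560 on the plus strand and AXIN2 at chr12:12343158-12343457 on the minus strand.
LEF1: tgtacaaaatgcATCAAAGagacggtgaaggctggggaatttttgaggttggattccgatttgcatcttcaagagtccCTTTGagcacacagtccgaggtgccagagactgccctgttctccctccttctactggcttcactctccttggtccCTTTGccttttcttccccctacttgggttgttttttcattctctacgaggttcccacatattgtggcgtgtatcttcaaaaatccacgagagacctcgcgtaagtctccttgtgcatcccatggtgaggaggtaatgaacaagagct
AXIN2: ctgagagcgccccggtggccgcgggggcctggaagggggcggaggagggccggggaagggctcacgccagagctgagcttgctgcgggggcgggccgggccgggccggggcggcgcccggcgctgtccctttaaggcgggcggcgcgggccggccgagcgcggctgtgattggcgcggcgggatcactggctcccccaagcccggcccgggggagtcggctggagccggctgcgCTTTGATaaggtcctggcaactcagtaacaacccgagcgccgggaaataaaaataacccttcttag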

How the data were processed

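Libraries of total RNA depleted of ribosomal RNA came from the kidney cortex of 23 newborn pigs. The authors deposited, for each library, estimated counts and TPM per RefSeq transcript of Sscrofa11.1, made with kallisto. Estimated counts were summed per gene symbol and rounded; TPM were summed and compared between genes as deposited. Depth was 32901281 to 52952273 estimated counts, and 3 counts, the limit that a count of 0 allows, cover counting error only. No pair of libraries matched within counting error (lowest chi-square per gene 29.8 over 253 pairs). Genes passing filterByExpr by CF and non-CF (20921) were fitted with the quasi-likelihood test of edgeR 4.0.16 (R 4.3.3) with TMM scaling, for CF against non-CF and in a fit of the 3 labels, and p-values were adjusted by Benjamini-Hochberg over all genes tested, with a threshold of 0.05. In the 3-label fit this filter was chosen after values with another, filterByExpr by the 3 labels, had been seen, and that other filter is kept as an alternative. The difference of the CF effect between earlier- and later-numbered pigs was an interaction term. Single values were tested by two-sided permutation of log2 CPM, exact between labels and with 100000 resamples for CF against non-CF. Alternatives used DESeq2 1.42.0, limma-voom (limma 3.58.1), other scalings and filters, length-scaled counts, the exact Mann-Whitney U test, the number set as a term or each set alone, and each library left out.

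The members and lists were chosen with earlier results of these data known. Named genes were CFTR, the 10 members, and of each pathway list every gene with an adjusted p under 0.05, otherwise the 2 with the smallest unadjusted p for CF against non-CF and the most abundant, with the most abundant gene of each marker list named beside a result and the 3 genes most like each member. Correlations over libraries are descriptions without p. Protein sequences were not compared, because no table of them was at hand. The promoter result of 1 member is not reported here. PAX8 and CELSR1 had no row and were not analysed.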

Additional observations from a re-analysis of the deposited data

Results flagged for a closer look

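Of 102 values examined over the 6 HET or 6 WT libraries, 3 had a library far from the others; chance alone gives about 1 in 20. WNT3 was 3.43 CPM in WT18, where the nearest of the other WT libraries was at 2.46. The summed podocyte markers were 1113 CPM in HET21, and the nearest HET library was at 898. Erythroid markers summed to 223 CPM in WT12, beside 134 in the nearest WT library.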

How the results depend on the processing

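Of 1070 values of the 10 genes' log2 fold changes over the alternatives, 1013 kept direction and side of the threshold. Of the rest, 2 passed it (WNT9B) and 55 changed sign, 45 of these with a library left out. A further 751 values were of the named pathway genes for CF against non-CF and of ETV4 for CF against WT. Of these 701 kept both, 4 passed the threshold, 14 (ETV4) lost it and 32 changed sign. CFTR and the other marker genes are not in these counts, nor are the pathway genes in the other comparisons. The filter by the 3 labels and the alternatives for ETV4 and for the difference between number sets were chosen after seeing the data. Where no cause is given, the cause was not tested.

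For CF against non-CF, the 73 genes called became 515 with DESeq2, 46 with limma-voom, 115 with a mean CPM of at least 1, 148 with the number set as a term, 0 in the earlier-numbered pigs alone and 473 in the later ones, 46 by Mann-Whitney, and 17 (without HET21) to 203 (without CF4) with a library left out. The members called became 1 with DESeq2 and 1 in the later-numbered pigs. For HET against WT, 1 became 33 with DESeq2 and 1 to 4 with a library left out. For CF against WT, 73 became 576 with DESeq2, 139 with upper-quartile scaling, 122 with a mean CPM of at least 1, 186 with the number set as a term, and 20 (without WT12) to 203 (without CF4). For CF against HET, 0 became 65 with DESeq2, 4 with median-of-ratios and 4 with upper-quartile scaling, 1 without a filter, 1 with a mean CPM of at least 1, 1 with length-scaled counts, 5 with the number set as a term, and 0 to 3 with a library left out. Upper-quartile scaling turned the balance for CF against non-CF from 51 higher and 22 lower to 48 and 53. For the difference between number sets, 4 genes became 144 with DESeq2 and 1 to 91 with a library left out, and 0 members became 1 with DESeq2 and 0 to 1.

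The sign changed for some genes. For CF against non-CF, WNT5A went to 0.013 (limma-voom), 0.009 (length-scaled), 0.010 (number set) and 0.055 (later pigs), DKK1 to -0.012 (upper quartile), -0.002 (length-scaled) and -0.078 (earlier pigs), and with upper-quartile scaling WNT16 to -0.002, PORCN to -0.014 and PTK7 to -0.006. AXIN2 in HET against WT went to -0.001 (limma-voom) and -0.016 (upper quartile), and DKK1 in CF against WT to 0.003 (limma-voom). With a library left out, values for CF against non-CF ran from -0.064 to 0.25 for WNT4, -0.089 to 0.072 for WNT5A, -0.097 to 0.077 for DKK1, -0.052 to 0.049 for WNT16, -0.017 to 0.05 for WLS, -0.024 to 0.033 for PORCN and -0.032 to 0.052 for PTK7; for HET against WT, from -0.389 to 0.059 for WNT7B, -0.082 to 0.08 for AXIN2 and -0.203 to 0.091 for DKK1; for CF against WT, from -0.073 to 0.384 for WNT7B and -0.167 to 0.127 for DKK1; and for CF against HET, from -0.12 to 0.057 for SFRP1 and -0.06 to 0.131 for DKK1.

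In the order of levels, AXIN2 was at place 3 in WT; LEF1 at 5 by CPM per length and at 2 in WT; WNT5A at 3 by CPM per length and at 5 in WT; WNT4 at 4 in both; WNT9B at 7 and WNT11 at 6 in HET and in WT. SFRP1, DKK1, SFRP2 and WNT7B kept their places. Depth limited none of the 10 genes to the floor of 3 counts in any library.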
